A study of Schistosoma mansoni with 6 samples.

Results

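The solute carriers and nutrient transporters of adult female *Schistosoma mansoni* were compared between the anterior and the posterior of the worm. Members were taken by annotation: a gene belonged to the set when its deposited description named a solute carrier, an amino acid, glucose, sugar, zinc or nucleoside transporter, a monocarboxylate carrier, an antiporter, cotransporter or symporter, or an aquaporin, and when its mean count was above 0. ABC transporters, ATP-binding proteins, and vesicular, GABA and drug transporters were left out. The rule matched 97 annotations, of which 1, an aquaporin 9, had a mean of 0, and this left 96 members of 9947 genes with a mean above 0 (10831 genes in the table). The rule itself uses no measured difference between the fragments.

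The study cut females, taken from mice at week 7 to 8 after infection, in front of and behind the ovary and made RNA libraries from 3 pools of anterior fragments (heads) and 3 pools of posterior fragments (tails). The females carried no mutation or treatment, and heads served as the reference for tails. The posterior of a mature female is mostly vitellarium, the gland that makes the yolk cells packed into each egg, while gut, tegument and protonephridia run through both fragments. A fragment is a mixture, so fewer cells of a type and less RNA per cell cannot be told apart.

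Schistosomes take up glucose, amino acids and ions across the tegument, the living syncytial skin, and also through the gut, and they excrete much of the glucose carbon as lactate. Solute carriers are membrane proteins that move such small molecules by facilitated diffusion, exchange or coupling to an ion gradient, and aquaporins are channels for water and, in some members, small uncharged solutes such as glycerol. The role given below to each family is that of its namesakes in mammals unless another organism is named, and was not measured here.

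Values are normalized counts, that is reads per gene divided by the size factor of the library, and they are not corrected for gene length, so levels are compared between fragments and not between genes. The deposited table holds group means, and for genes of low level these could be split back into the whole reads of each library. Libraries are named here by size factor, and triplets of values follow the order 2.55, 2.35, 2.08 in heads and 0.72, 0.35, 0.32 in tails. The libraries held an estimated 25.4 to 31.1 M reads on genes in heads and 5.25 to 11.8 M reads in tails, which makes a low level more uncertain in tails. The 7 vitelline markers, among them tyrosinase 1 and 2, were higher in tails by 6.09 to 7.81 on the log2 scale and the 4 oesophageal gland markers were higher in heads, with log2 fold changes of -7.69 to -7.29. The fragments therefore carry the markers of their labels, although the study picked some of these markers on the same libraries.

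The gene named y+lat2 (Smp_054010) had a 50.2-fold higher mean in tails than in heads, and the study cloned a fragment of it for in situ hybridization. The primers of that fragment are shown because they identify the stretch of this gene that was cloned. Both are given 5′ to 3′ in lower case with nothing marked.
forward primer: gcaatcgctattgtggcttt
reverse primer: actccatgcacaaccgagta

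As a set, transporters were spread over both fragments. They made up 0.759% of the summed normalized counts in heads and 0.731% in tails. The median log2 fold change, tail over head, was -0.12 (quartiles -0.80 and 0.53) beside 0.00 over all genes (quartiles -0.89 and 0.62), and 58 of 96 members lay within 2-fold. At 2-fold or more, 15 members were higher in tails, beside 14.5% of all genes, and 23 were higher in heads, beside 23% of all genes; both counts are near that background. At 8-fold or more, 6 members were higher in tails, where 1.94% of all genes were, and 3 were higher in heads, where 2.14% of all genes were. These are counts of group means, with no error. Genes at 0 in a group enter the medians and counts at the bound that 3 reads allow. The 2 members at 0 in tails are thus counted within 2-fold, although the fold of Smp_108610 is known only to be at least 1.68.

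**Figure D1:**
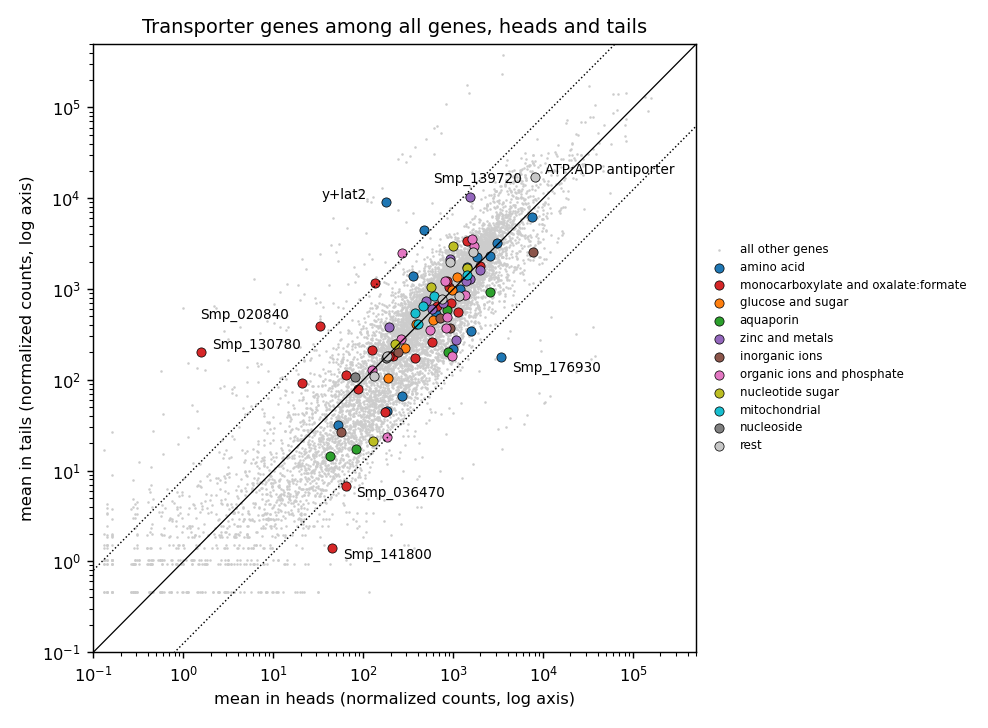
Mean normalized count in heads (x, log axis) and in tails (y, log axis) of every gene with a mean above 0 in both groups (grey) and of the members (coloured by family). The solid line marks equal means and the dotted lines an 8-fold difference. Most members lie along the solid line, y+lat2 and Smp_130780 lie above the upper dotted line with 4 others, and Smp_141800, Smp_176930 and Smp_036470 lie below the lower one. The 2 members at 0 in tails cannot be drawn.

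A test could be made for 66 of the 96 members: 31 with reads of single libraries in both groups and 35 with reads in one group, the other group entering limma as its mean. By limma with Benjamini-Hochberg adjustment over all genes tested, 6 of the 31 rose in tails (20.2% of all genes tested) and 12 rose in heads (42.6%). Over all 66 the counts were 9 in tails (15.3% of all genes tested) and 26 in heads (39.4%). The library values of the 2 groups did not overlap in 21 of the 31 members, 7 higher in tails (22.8% of all genes tested) and 14 higher in heads (49.1%). At the thresholds of the study applied to limma, a log2 difference of at least 3 and an adjusted p under 0.001, 5 members were called in tails (1.37% of all genes tested) and 3 in heads (1.94%). Of the 30 members without a test, 29 had means beyond the recovery and 1 had a single read, and 9 of the 30 were at least 2-fold higher in tails by group mean against 1 in heads, so the calls leave out more genes of the tail side than of the head side. In what follows each member is given the fit with reads in both groups where it has one and the other fit where it has not, by which 9 members rose in tails, 27 rose in heads and 30 passed in neither direction.

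**Figure D2:**
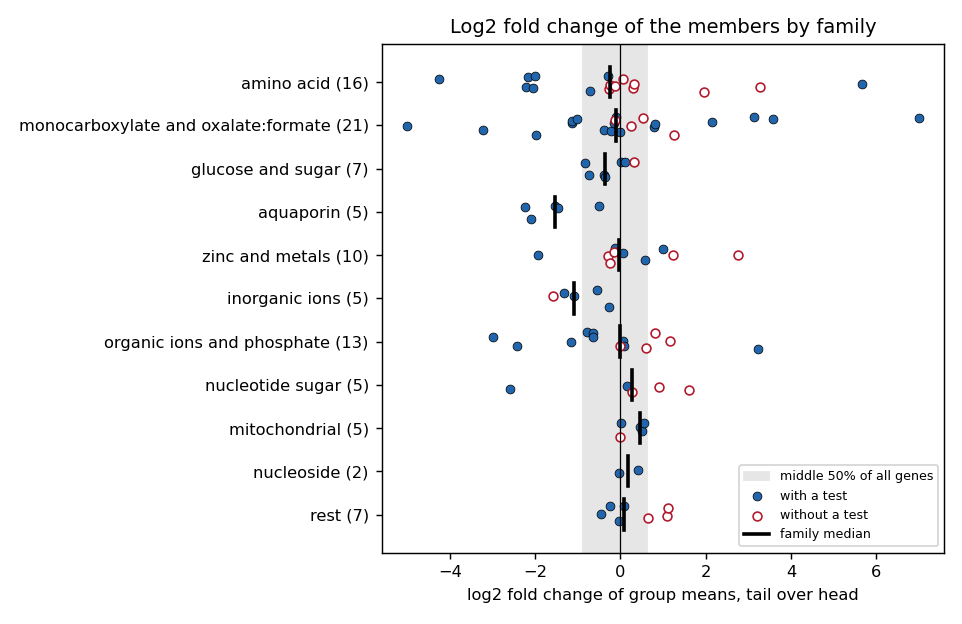
Log2 fold change of group means, tail over head (x), of each member by family (y, number of members in brackets), with the family median as a black bar and the middle 50% of all genes shaded. Filled points have a limma test and open points have none; the 2 members at 0 in tails are drawn, and counted in the medians, at the bound that 3 reads allow. All 5 aquaporins lie left of 0, while the amino acid and the monocarboxylate and oxalate:formate families reach far to both sides.

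Amino acid transporters were found on both sides. Of 16 members, 8 were tested, 1 rose in tails, 5 rose in heads and 2 passed in neither direction. Of all genes tested, 15.3% rose in tails and 39.4% in heads. The family median was -0.25. The gene y+lat2 is annotated as y+L amino acid transporter 2, the light chain of an exchanger of cationic for neutral amino acids. Its head libraries held 70.2, 193 and 273 normalized counts (mean 178.7 ± 102.0, SD, n = 3), while its tail mean was 8978. Every head library was far below the tail mean, and the lowest head library was the one of size factor 2.55. The group means differed 50.2-fold, and limma gave a log2 difference of 5.85 ± 0.53 (SE) with an adjusted p of 0.000875. That call takes the tail libraries, whose reads were beyond the recovery, to vary like the head libraries.

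A pair of members of solute carrier family 43, which in mammals moves large neutral amino acids, was also higher in tails by group mean. Smp_169090 went from 466.7 in heads to 4517 in tails, a 9.68-fold difference, and Smp_013950 from 357.0 to 1384 (log2 fold change 1.96). The third annotated member, Smp_169050, had 1183 in heads and 1004 in tails. None of these could be tested.

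Genes annotated as cationic amino acid transporters, which take up arginine and lysine, rose in heads where they could be tested. Smp_176930 had a head mean of 3372 and tail libraries of 216, 133 and 185 (mean 177.8 ± 41.5, SD, n = 3). All tail libraries lay far below the head mean. The means differed 19.0-fold, and limma gave -4.26 ± 0.24 (SE) with an adjusted p of 0.000242. Smp_176940 rose in heads too (979.4 against 217.6; log2 fold change -2.17), as did Smp_151090 (-2.05) and Smp_151000 (-2.01). In Smp_151000 the head libraries were 180, 181 and 186 and the tail libraries 43.1, 39.7 and 53.2. Smp_016600, of the glutamate carrier family 1, was the fifth to rise in heads, with a log2 fold change of -2.21 and an adjusted p from limma of 0.00268. The high affinity cationic transporter Smp_123010 had 7520 in heads and 6244 in tails, without a test. Of the other untested ones, Smp_083990 (1812 in heads, 2245 in tails) and Smp_197920 (3066 and 3201) were slightly higher in tails. Smp_004190 (2519 and 2290) was slightly higher in heads.

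The monocarboxylate and oxalate:formate family was split. Some monocarboxylate transporters carry lactate and pyruvate with a proton, and the oxalate:formate antiporters are named after a bacterial exchanger of the same large superfamily. Of 21 members, 17 were tested, and 6 rose in tails and 6 in heads (15.3% and 39.4% of all genes tested). The median was -0.11. The difference of largest size among all members with reads in both groups belonged to the monocarboxylate transporter Smp_130780. Its head libraries held 1.18, 2.13 and 1.44 normalized counts, from 3, 5 and 3 reads, and its tail libraries 210, 201 and 194. The groups stood wide apart, and each was even within itself. The means differed 128-fold, and the limma log2 difference, which the added count of 1 pulls towards 0, was 6.31 ± 0.30 (SE) with an adjusted p of 3.07e-05.

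Among the 13 monocarboxylate members 9 were tested, and 2 rose in tails and 3 in heads (15.3% and 39.4% of all genes tested). The other that rose in tails was Smp_150090, annotated as transporter 14, with 68.6, 62.2 and 61.4 in heads and 100, 119 and 116 in tails (adjusted p from limma 0.00573). On equal group totals its call was lost (adjusted p 0.0989). In heads Smp_079640 rose most, from 54.2, 31.2 and 46.9 in the tails to 162, 189 and 170 in the heads. Smp_161430 (transporter 12, log2 fold change -1.14) and Smp_151010 (-1.01) rose in heads less, and the call of Smp_151010 was lost without the tail library of size factor 0.35 (adjusted p from limma 0.0638). Smp_144760, from 1408 to 3358, was the only untested one with a fold of at least 2.

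The 8 oxalate:formate antiporters had 4 calls in tails and 3 in heads (15.3% and 39.4% of all genes tested). Smp_020840 held 25.5, 31.9 and 40.3 in heads and 366, 403 and 404 in tails, a 12-fold difference of means (limma 3.57 ± 0.20, SE; adjusted p 3.87e-05). Its neighbour Smp_135020 held 123, 134 and 143 in heads, with a tail mean of 1164 (8.72-fold; limma adjusted p 0.000205). Smp_134990 held 12.5, 27.7 and 22.6 in heads and 103, 87.9 and 87.6 in tails (log2 fold change 2.15). In Smp_020840 and Smp_134990 the groups stood apart. In Smp_135020 every head library lay far below the tail mean. Its tail libraries were beyond the recovery, and its call takes them to vary like the head libraries. Smp_134980 rose by less (0.79), a call that was lost on equal group totals (adjusted p from limma 0.069).

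On the other side, Smp_141800 held 38, 51.9 and 45.6 in heads and 1.39, 2.84 and 0 in tails, the last from 1, 1 and 0 reads. The means differed 32.1-fold (limma -4.45 ± 0.53, SE; adjusted p 0.000425), but the fold rests on 2 tail reads, and the log2 fold change was -6.02 without the tail library of size factor 0.35 and -4.42 without that of 0.32. Smp_036470 held 60.0, 60.4 and 69.6 in heads and 8.34, 5.67 and 6.26 in tails (9.37-fold; adjusted p from limma 0.000201). Smp_135010 rose in heads by a smaller step (log2 fold change -1.14), and Smp_145560 overlapped between the groups, with 60.0 to 107 in heads and 59.8 to 93.9 in tails.

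**Figure D3:**
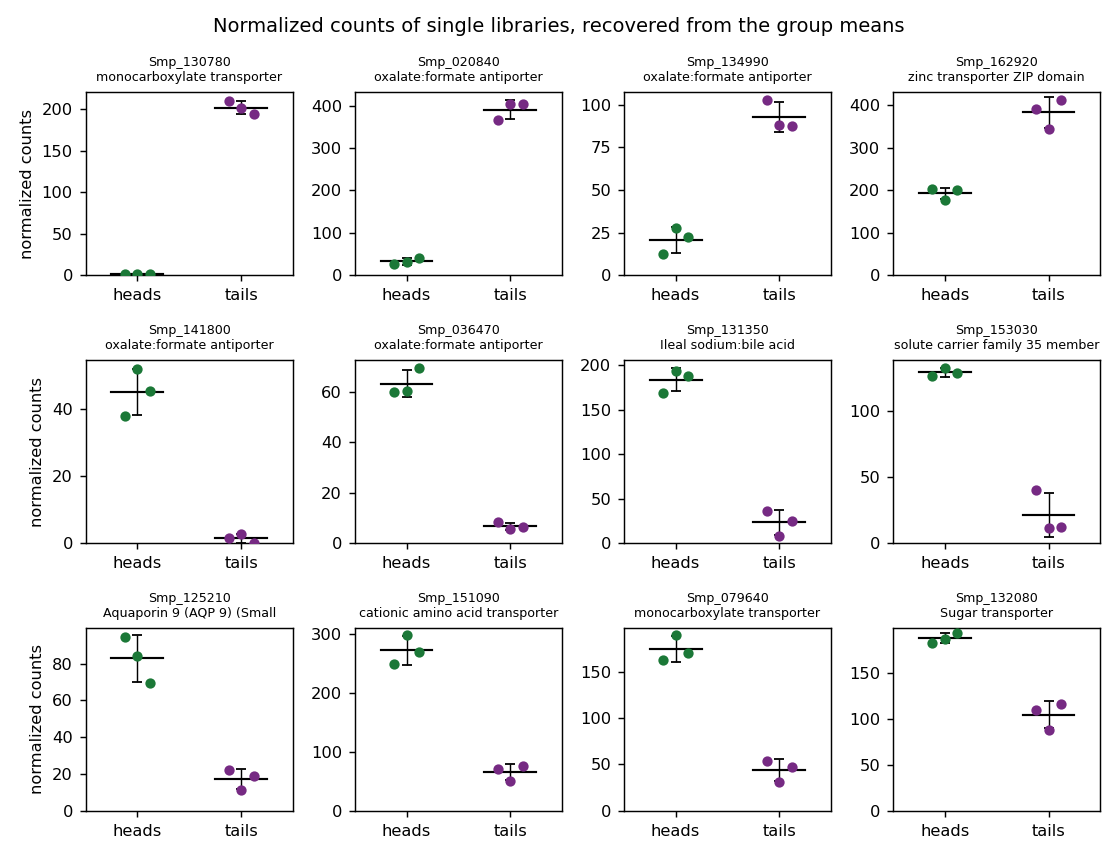
Normalized counts (y, from 0) of the 3 head libraries (green) and the 3 tail libraries (purple) for 12 members with reads in both groups; bars are the mean and the whiskers ± SD, n = 3. The 12 panels are a selection in which no member with overlapping groups is drawn, so their lack of overlap does not describe the set. Among the 31 members tested with reads in both groups, 21 did not overlap, 7 higher in tails and 14 higher in heads. Of all genes tested, 22.8% and 49.1% did so. In Smp_131350 and Smp_153030 the tail libraries are the more scattered group.

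Members that lie beside each other in the genome did not always share a direction. By gene order in the RefSeq annotation of assembly ASM23792v2, in which 89 of the 96 members were found, 28 members formed 10 groups with at most 1 gene between neighbours. This grouping was added after the values were seen. The gene y+lat2 lies in a row with Smp_151090, Smp_151000 and a second gene of the same annotation, Smp_150990, whose log2 fold changes were -2.05, -2.01 and -0.72 against 5.65 for y+lat2 itself. Smp_150990 held 61.6, 46.0 and 48.9 in heads and 20.9, 39.7 and 34.4 in tails (adjusted p from limma 0.068). In the row of 5 antiporters Smp_135010, Smp_134990, Smp_134980, Smp_141800 and Smp_036470 the values were -1.14, 2.15, 0.79, -5.00 and -3.23. The pair Smp_020840 and Smp_135020 (3.58 and 3.12) and the pair Smp_176940 and Smp_176930 (-2.17 and -4.24) each went one way. No source used here names the read counter, and where such copies are near-identical, reads could have been divided between them.

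**Figure D4:**
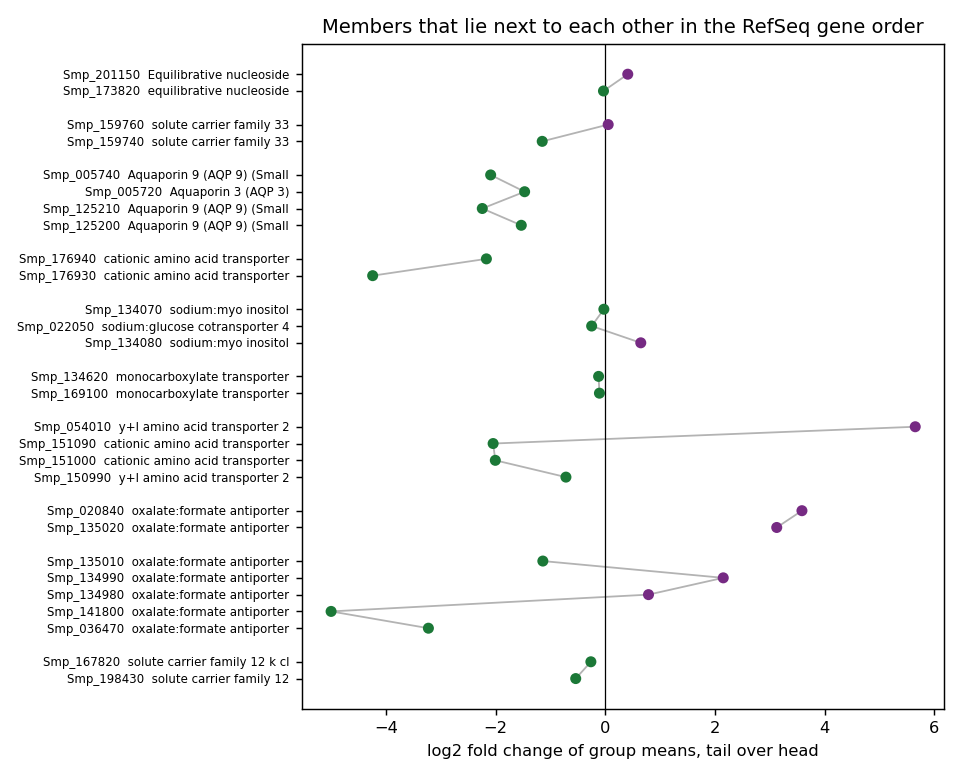
Log2 fold change of group means, tail over head (x), of the 28 members that lie beside another member in the RefSeq gene order, one row per gene (y), with lines joining neighbours. Purple points are higher in tails and green points higher in heads. The row that holds y+lat2 and the row of 5 oxalate:formate antiporters span both sides, and the 4 neighbouring aquaporins stay on the head side.

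Aquaporins were on the head side throughout. All 5 members had a test, 4 rose in heads, where 39.4% of all genes tested did, and the median log2 fold change was -1.53. Smp_125210, annotated as aquaporin 9, a channel for water and small solutes, held 94.5, 84.3 and 69.6 in heads and 22.2, 11.3 and 18.8 in tails (4.74-fold; limma -2.22 ± 0.31, SE; adjusted p 0.000868). Smp_005740, of the same annotation, fell from a head mean of 869.7 to 203.9 ± 19.4 (SD, n = 3) in tails, and the aquaporin 3 Smp_005720 from 2583 to 930.4 ± 64.4 (SD, n = 3). Smp_125200 held 54.1, 43 and 29.3 in heads and 19.5, 8.51 and 15.6 in tails. Its call (adjusted p from limma 0.013) was lost without the head library of size factor 2.55 (0.0645) or 2.35 (0.056). The member that did not pass was aquaporin 1, Smp_128110, with 844.2 in heads and 590.7 ± 90.4 (SD, n = 3) in tails (adjusted p from limma 0.0678; 0.00775 on equal group totals).

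Of the 7 glucose and sugar transporters, the 6 with reads in both fragments lay within 2-fold. In the family, 3 of 6 tested rose in heads, each by its own fit. In the fit with reads in at least one group 2 of the 6 rose in heads, where 39.4% of all genes tested did. Smp_132080 held 182, 187 and 193 in heads and 110, 87.9 and 116 in tails (log2 fold change -0.84; adjusted p from limma 0.003). Smp_213750 differed by little (-0.37), and its adjusted p of 0.0331 from limma was lost whichever head library was left out (0.0596 to 0.11). It was not called in the fit with reads in at least one group (adjusted p from limma 0.0709). In Smp_108610 the head libraries gave 8, 8 and 9 reads, against 0 in every tail library, and against the limit of 3 reads over the tail group it was at least 1.68-fold higher in heads (adjusted p from limma 0.00125). The facilitated glucose transporters of family 2 gave 1093 in heads and 1352 in tails for Smp_127200, without a test, and 595.6 and 459.6 ± 27.3 (SD, n = 3) for Smp_046790 (adjusted p from limma 0.102).

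Zinc and metal transporters, which move zinc into or out of the cytosol, included an untested gene with a higher mean in tails. The mean of Smp_139720 was 1512.8 in heads, and its tail mean of 10196.5 was 6.74-fold higher. Of 10 members 5 were tested, 1 rose in tails, 1 rose in heads and 3 passed in neither direction. Of all genes tested, 15.3% rose in tails and 39.4% in heads. Smp_162920, of the ZIP importers, rose in tails from 202, 178 and 200 to 392, 343 and 413 (adjusted p from limma 0.000676), and the zinc transporter foi, Smp_167630, rose in heads, where its mean was 1061 against 275.9 ± 67.5 (SD, n = 3) in tails. ZIP14 (Smp_013440) had 911.9 and 2131 with no test. The copper transporter of family 31, Smp_048230, had a log2 fold change of 1.12 in the same untested way.

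Where carriers of ions and organic anions passed the test, all but Smp_160160 did so in heads. In the inorganic ion family, of cation-chloride cotransporters and anion exchangers, the median was -1.09 over 5 members. Of 4 tested, 1 rose in heads, where 39.4% of all genes tested did. It was Smp_145320 of family 26 (927.3 against 373.0 ± 76.8, SD, n = 3). Smp_153480, of the cation-chloride family 12, had 7735 in heads and 2585 in tails with no test, and the potassium-chloride cotransporter Smp_167820 was the least changed at -0.26 (adjusted p from limma 0.243). Smp_198430 and Smp_165670 of family 12 passed in neither direction with all libraries, and all 3 tested members of that family were called in heads without the tail library of size factor 0.72 (adjusted p from limma 0.00322, 0.0117 and 0.0245). In the family of organic ions and phosphate, 6 of 9 tested rose in heads, beside 39.4% of all genes tested. The median was -0.30 over 12 members, leaving out Smp_098570, which had a single read. Of these 6 calls, Smp_170080 and Smp_136310 lost theirs without the tail library of size factor 0.35 (adjusted p from limma 0.137 and 0.216) or 0.32 (0.11 and 0.0714), and Smp_095090 without that of 0.72 (0.054) or 0.35 (0.145). The ileal sodium:bile acid cotransporter Smp_131350 held 169, 194 and 189 in heads and 36.2, 8.51 and 25 in tails (7.91-fold; adjusted p from limma 0.00105).

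Family 17, whose mammalian members carry phosphate, sialic acid or glutamate, had members on both sides. Smp_160160 held 342, 227 and 238 in heads with a tail mean of 2517, a 9.35-fold difference (limma 3.24 ± 0.23, SE; adjusted p 0.000436). Its tail libraries were beyond the recovery, and its call takes them to vary like the head libraries. Smp_129060 went the other way, from 966.5 in heads to 282, 122 and 138 in tails (adjusted p from limma 0.00301). Smp_171630 overlapped, with 236 to 283 in heads and 257 to 310 in tails. The bile acid cotransporter Smp_098570 had 1 head read in all and none in tails, too few for any comparison.

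Some carriers of family 35 bring nucleotide sugars to glycosylation in the Golgi and endoplasmic reticulum. Whether the members of this family named below do so was not measured. Smp_153030 (member f4) held 126, 132 and 129 in heads and 40.3, 11.3 and 12.5 in tails (6.04-fold; adjusted p from limma 0.00155), with the tail library of size factor 0.72 far above the others and a log2 fold change of -3.44 without it. Smp_171120 (member b1) was at the other end, 979.1 against 2968, with no test. Of the 5 members whose annotation names family 25, of mitochondrial carriers, 4 were tested with limma and 0 passed, with 1 at an unadjusted p under 0.05, in the direction of tails. The range of their log2 fold changes was -0.02 for Smp_137000 to 0.54 for Smp_038840 (tail libraries 485, 531 and 629; adjusted p from limma 0.0524). The ATP:ADP antiporter Smp_079220 also exports ATP from mitochondria, but its annotation names no family, so it is counted with the remaining members. It had 7966 in heads and 16988 in tails, with no test. Both nucleoside transporters had log2 fold changes between -0.04 and 0.41, and limma called 0 of the 2, with 1 at an unadjusted p under 0.05 in the direction of tails.

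The remaining 7 members held that antiporter, the copper transporter, 3 carriers of glucose or inositol coupled to sodium and 2 organic anion transporters. Of these 4 were tested with limma and 0 passed, with 1 at an unadjusted p under 0.05 in the direction of heads. The lowest was the organic anion transporter Smp_134530, with 1154 in heads and 813, 862 and 842 in tails (log2 fold change -0.46; adjusted p 0.0777, and 0.00749 on equal group totals). Sodium:myo inositol cotransporter Smp_134070, which takes up an osmolyte, overlapped between the groups, with 172 to 193 in heads and 148 to 203 in tails.

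The head libraries differed among themselves in genes higher in tails. Tyrosinase 1 (Smp_050270), an egg shell enzyme of vitelline cells, held 8.63, 197 and 514 in the head libraries, tyrosinase 2 (Smp_013540) 3.53, 67.3 and 262, and nanos-1 (Smp_055740), a marker of proliferating vitelline cells, 5.10, 54.9 and 48. The paper also detected nanos-1 in the front part of the ovary, so its values are not specific to vitelline cells. The vitelline marker fs800 (Smp_000290), with a head mean of only 0.56, held 0.39, 1.28 and 0. The head library of size factor 2.55 was thus the lowest in each but fs800. Among members whose head reads were recovered and whose head mean reached 10, it was the lowest in 4 of 5 that were at least 2-fold higher in tails (80%) and in 9 of 27 others (33.3%), beside 72.3% and 36.9% over all genes. Smp_160160 was the exception, with its highest value in that library. In y+lat2 the log2 fold change of means was 5.27 without this library and 6.09 without that of size factor 2.08. In tails, the library of size factor 0.72 was the highest in 14 of 20 members that were at least 2-fold higher in heads (70%) and in 15 of 40 others (37.5%), beside 74.6% and 39% over all genes. The part of carried-over tissue in these values was not tested.

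**Figure D5:**
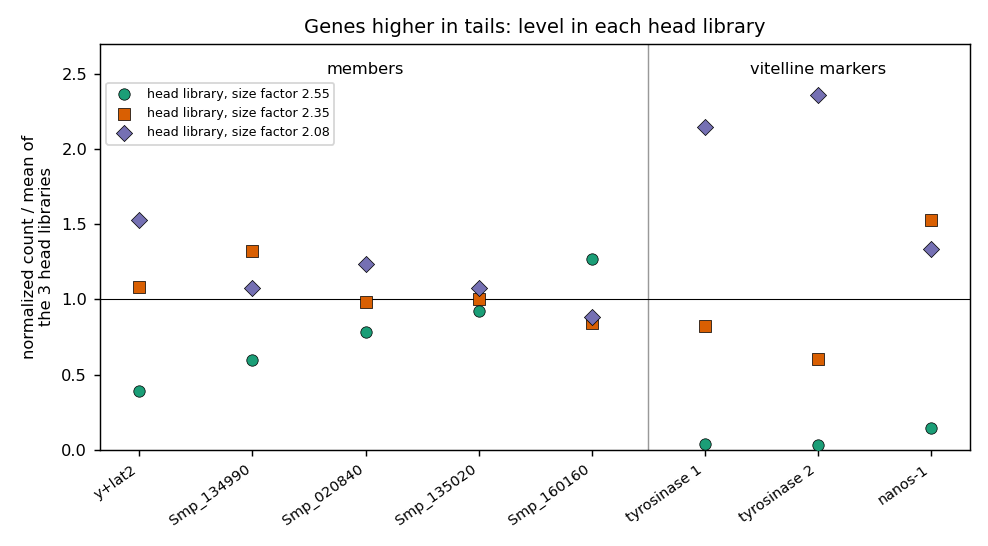
Normalized count in each head library divided by the mean of the 3 head libraries (y, from 0) for the 5 members whose head reads were recovered, whose head mean reached 10 and whose tail mean was at least 2-fold higher (left) and for 3 vitelline markers (right); symbols mark the library by size factor. The library of size factor 2.55 is the lowest in all but Smp_160160, and the libraries differ less in the members than in the 3 markers. Of these markers, nanos-1 is also expressed in the ovary.

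A wider list took every other gene whose annotation held a word such as transporter, exchanger, permease, carrier protein or translocase. It held 74 genes, among them some that move no small solute, such as protein import translocases of mitochondria, an acyl carrier protein synthase and reductase, and a nitrogen permease regulator. At 2-fold or more 12 were higher in tails (14.5% of all genes) and 22 in heads (23%), and of 44 tested by limma 5 rose in tails (15.3% of all genes tested) and 20 in heads (39.4%). The permease 1 heavy chain Smp_037540, a partner chain that brings amino acid permeases to the membrane, had 4120 in heads and 18311 in tails with no test. The sodium dependent neurotransmitter transporter Smp_055260 rose in tails from 82.8 to 1451 (adjusted p from limma 0.000359), and the vesicular acetylcholine transporter Smp_046120, which loads synaptic vesicles, rose in heads with a log2 fold change of -2.76. The call of Smp_055260 takes its tail libraries, which were beyond the recovery, to vary like the head libraries. A beta subunit of the sodium:potassium ATPase, Smp_163170, went from 363.2 in heads to 1.41 in tails (log2 fold change -8.01; adjusted p from limma 0.000493), the latter from 1, 1 and 0 reads, and the log2 fold change was -9.03 without the tail library of size factor 0.35 and -7.42 without that of 0.32.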

How the data were processed

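RNA-seq of 3 head and 3 tail libraries was used. The authors mapped reads with STAR 2.5.0b to the WormBase ParaSite genome, divided reads per gene by DESeq 1.22 size factors and averaged them. The deposited signal values are the means of each group and of all libraries. The deposited columns of fold changes and p-values hold the authors' own comparison and were not used.

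Whole reads of single libraries were solved from 10 significant digits of each mean, under 300 in heads and 1000 in tails. A single solution was found for 3900 of 4027 head genes and 6441 of 6441 tail genes, and for 35 and 64 members. In simulated data, 559 of 559 single solutions in heads and 572 of 572 in tails were right; of shifted means, which no reads should give, 24.3% in heads and 1.92% in tails still had a solution. The solved libraries could not be tied to replicate numbers.

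The difference of tails and heads was tested in limma 3.58.1 (R 4.3.3) after adding 1 to each normalized count and taking log2, with a trend of the variance on the mean, a minimum of 10 reads and Benjamini-Hochberg adjustment over 3387 genes with reads in both groups. Differences on this scale understate changes of low genes. For 6295 genes with reads in at least one group, the other entered as its mean with weight 3. Of 2126 calls made with all reads, 995 were kept with the head reads hidden, 99.0% of the 1005 calls then made. With tail reads hidden 2109 were kept, 79.3% of the 2659 calls then made. A missing call is therefore weak where only tail reads were recovered. In simulated data over 3341 genes with reads in both groups, 97 of 100 changed 8-fold and 85 of 100 changed 4-fold were called, as were 6 of 3141 unchanged; with head reads hidden, 82, 61 and 1. No single-gene exact test was used, since 3 against 3 libraries cannot go below an exact permutation p of 0.1. The series calls its samples biological replicates.

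Named genes were members whose group means differed by at least 3 on the log2 scale and whose mean reached 10, the 3 highest in each group, the extremes of each family of at least 3 and members at 0 in one group; others were chosen after their values were seen. The members and all lists were chosen with earlier results of these data known. Alternatives were other pseudocounts, filters, scalings, no trend, and leaving out each library.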

Additional observations from a re-analysis of the deposited data

How the results depend on the processing

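Equal group totals shifted all log2 fold changes by 0.43 towards heads, after which 10 members were at least 2-fold higher in tails and 29 in heads (8.47% and 31.3% of all genes), 3 and 5 at least 8-fold, and limma with reads in both groups called 4 in tails and 19 in heads (13.3% and 56.3% of all genes tested), with reads in at least one group 7 and 40 (8.63% and 56.2%). By each member's own test, 14 members gained a call in heads and 2 lost one in tails. With a median of 0 over the 7196 genes with a mean of at least 100 (shift 0.14), 13 and 23 members were at least 2-fold higher. The members at least 8-fold higher in heads numbered 1 with a mean of at least 100, 1 with 10 added to both means and 1 without the oxalate:formate antiporters. Leaving out each library gave 6 to 7 members in tails and 10 to 15 in heads with reads in both groups, and 8 to 12 and 23 to 29 with reads in at least one group, the last chosen after seeing the data. Pseudocounts of 0.5 and 5 and no trend kept the counts of calls within 1.5 times. No value changed sign in a called gene. No paired analysis was possible because the group means carry no replicate numbers. Depth limits members of low level in tails, where 3 reads over the group stand for 2.16 normalized counts against 0.43 in heads.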
